A study of Mus musculus with 8 samples.

Results

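In proliferating iMOPs, 806 of 7471 H3K4me3 peaks lay more than 1 kb from both annotated ends of every protein-coding gene, and these 806 peaks are described here. They were picked by position alone, measured from the edges of each peak to the gene ends of the RefSeq annotation of GRCm38.p6, which shares its coordinates with mm10. The other 6665 peaks of the same list touched or lay near a coding gene end. The whole list holds 7472 peaks, of which 1 lies on an unplaced sequence and was left out. iMOPs (immortalized multipotent otic progenitors) are a wild-type line of progenitors of the inner ear. The 6 peak lists used were CUT&Tag for H3K4me3, for the chromatin remodeler CHD4 and for the acetyltransferase p300, in iMOP-derived neurons grown with 1 µM K03861 and in proliferating iMOPs grown with 20 ng/ml bFGF. K03861 is an inhibitor of cyclin-dependent kinases, and bFGF is the growth factor that keeps the line dividing. Both states come from the same cell line, so the neurons are a culture model. There was 1 library for each antibody and state, so the shares below carry exact (Clopper-Pearson) 95% intervals that cover counting error only, and no difference between states or between groups of peaks was tested.

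H3K4me3 is a histone mark laid down at active and poised transcription starts, most strongly where the DNA is rich in CpG. Active coding genes usually carry it at their start. Peaks elsewhere can lie on an alternative start inside a gene, on the start of a noncoding RNA, on a tRNA gene, or on an enhancer with strong transcription. CHD4 is the ATP-driven motor of the NuRD complex, which slides nucleosomes and is coupled to histone deacetylation. p300 acetylates histones at enhancers and promoters.

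The sequence around the transcription start is shown for 6 of these peaks, to show the range of starts under them. Each run is 250 bases before to 50 bases after a RefSeq start, read on the gene's own strand from the RefSeq promoter table of GRCm38.p6, with CpG pairs in capitals. Ptch1, Nav2, Elavl2 and Adh7 are coding genes whose start shown here lies inside the gene, and Malat1 and Mir22hg are noncoding genes.
Ptch1, chr13:63565686-63565985, minus strand: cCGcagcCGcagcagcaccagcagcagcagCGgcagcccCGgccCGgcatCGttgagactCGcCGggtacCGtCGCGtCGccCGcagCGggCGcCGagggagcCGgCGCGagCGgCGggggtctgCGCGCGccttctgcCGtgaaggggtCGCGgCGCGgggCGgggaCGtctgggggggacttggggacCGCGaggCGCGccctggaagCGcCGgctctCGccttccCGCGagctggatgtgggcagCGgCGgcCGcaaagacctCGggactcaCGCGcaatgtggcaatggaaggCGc
Nav2, chr7:49245939-49246238, plus strand: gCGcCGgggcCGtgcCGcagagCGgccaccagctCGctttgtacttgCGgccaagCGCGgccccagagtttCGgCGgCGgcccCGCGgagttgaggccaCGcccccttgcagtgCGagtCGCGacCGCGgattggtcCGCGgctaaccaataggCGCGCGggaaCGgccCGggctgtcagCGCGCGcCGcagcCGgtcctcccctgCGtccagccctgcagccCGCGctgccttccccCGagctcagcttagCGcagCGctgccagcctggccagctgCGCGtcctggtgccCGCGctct
Elavl2, chr4:91376421-91376720, minus strand: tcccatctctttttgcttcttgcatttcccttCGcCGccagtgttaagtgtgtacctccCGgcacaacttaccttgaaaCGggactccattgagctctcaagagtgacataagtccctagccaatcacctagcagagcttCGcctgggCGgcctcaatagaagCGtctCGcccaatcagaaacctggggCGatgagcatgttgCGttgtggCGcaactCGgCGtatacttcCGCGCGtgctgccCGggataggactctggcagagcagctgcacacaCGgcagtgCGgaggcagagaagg
Adh7, chr3:138217523-138217822, plus strand: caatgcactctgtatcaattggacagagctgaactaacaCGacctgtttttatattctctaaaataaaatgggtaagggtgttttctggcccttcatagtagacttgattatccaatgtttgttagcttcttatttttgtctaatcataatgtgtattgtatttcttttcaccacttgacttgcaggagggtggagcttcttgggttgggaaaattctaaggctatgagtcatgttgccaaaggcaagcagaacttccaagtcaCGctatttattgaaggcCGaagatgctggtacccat
Malat1, chr19:5802623-5802922, minus strand: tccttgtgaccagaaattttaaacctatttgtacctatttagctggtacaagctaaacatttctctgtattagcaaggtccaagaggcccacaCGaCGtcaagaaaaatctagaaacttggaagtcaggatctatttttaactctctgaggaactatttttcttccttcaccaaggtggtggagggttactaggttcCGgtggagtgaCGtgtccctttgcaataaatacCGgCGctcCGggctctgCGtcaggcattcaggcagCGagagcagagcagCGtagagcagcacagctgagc
Mir22hg, chr11:75461289-75461588, plus strand: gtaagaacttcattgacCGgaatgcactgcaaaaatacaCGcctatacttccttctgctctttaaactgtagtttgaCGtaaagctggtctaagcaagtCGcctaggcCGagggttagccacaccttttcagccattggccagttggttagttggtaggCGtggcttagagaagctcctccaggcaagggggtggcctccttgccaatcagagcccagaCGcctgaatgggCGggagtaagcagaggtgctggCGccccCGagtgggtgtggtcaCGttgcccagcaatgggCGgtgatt
These windows held 47 CpG at Ptch1, 42 at Nav2, 19 at Elavl2 and 3 at Adh7. The noncoding pair held 10 at Malat1 and 12 at Mir22hg. CpG was thus dense at Ptch1 and Nav2 and sparse at Adh7.

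Mature microRNAs are shown for loci marked by these peaks, with the seed (bases 2 to 8, which pairs with target RNAs) in capitals, from the RefSeq miRNA table of GRCm38.p6.
mmu-miR-9-5p, Mir9-2, chr13:83738821-83738843, plus strand: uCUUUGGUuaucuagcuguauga
mmu-miR-9-5p, Mir9-3, chr7:79505279-79505301, plus strand: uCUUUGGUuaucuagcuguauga
mmu-miR-125b-5p, Mir125b-1, chr9:41581940-41581961, plus strand: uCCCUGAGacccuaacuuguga
mmu-miR-22-3p, Mir22, chr11:75463772-75463793, plus strand: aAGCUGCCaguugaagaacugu
mmu-miR-130a-3p, Mir130a, chr2:84741116-84741137, minus strand: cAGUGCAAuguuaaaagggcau
mmu-miR-670-5p, Mir670, chr2:94261358-94261379, minus strand: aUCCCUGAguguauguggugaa
mmu-miR-193a-3p, Mir193a, chr11:79712009-79712030, plus strand: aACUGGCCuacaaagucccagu
Mir9-2 and Mir9-3 yield the same mature miR-9 and so share their seeds. Peaks at Mir9-2, Mir9-3, Mir125b-1, Mir22 and Mir130a were also listed in neurons. Peaks at Mir670 and Mir193a were listed in proliferating iMOPs only.

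Inside or outside genes, the 806 peaks fell mostly within the body of a coding gene. A coding gene spanned 602 peaks (74.7%, interval 71.5 to 77.7%), and 204 lay between coding genes. Of the other peaks, which by the rule touched or lay near a coding gene end, 99.7% overlapped a coding gene. An end of a noncoding gene lay within 1 kb of 298 peaks (37.0%, 33.6 to 40.4%), against 21.9% of the other peaks. Of these 298 peaks, 147 were also inside a coding gene and 151 were not. By type, 234 peaks had a lncRNA end, 47 a tRNA end, 24 a miRNA end, 24 a pseudogene end and 20 an end of another type, and a peak can have several. The remaining peaks comprised 455 inside a coding gene, 9 inside a noncoding gene only and 44 outside every gene in the table. On X lay 4 peaks (0.496%, 0.135 to 1.27%), against 1.53% (1.25 to 1.85%) of the other peaks, and none was on Y.

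At the level of starts, an internal start of a coding gene was the commonest feature. The promoter table could be searched for 494 of the 602 peaks in coding genes, those whose host genes all have starts in it, and 400 of the 494 (81.0%, 77.2 to 84.3%) covered a RefSeq start of a coding gene. These starts belonged to 395 coding genes. A lncRNA start lay under 163 peaks (172 lncRNA genes), and 65 peaks covered a start of both types. For 201 peaks neither a start in the table nor a noncoding gene end was found. Sorting each peak once, in the order tRNA end, miRNA end, coding start, lncRNA start, other noncoding end and the rest, gave 394 at an internal coding start, 78 at a lncRNA start, 63 at another noncoding gene end, 47 at a tRNA gene end and 23 at a miRNA gene end. Of the rest, 68 lay in the body of a coding gene with no start under them, 80 in a coding gene with no entry in the promoter table, and 53 outside coding genes.

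**Figure D1:**
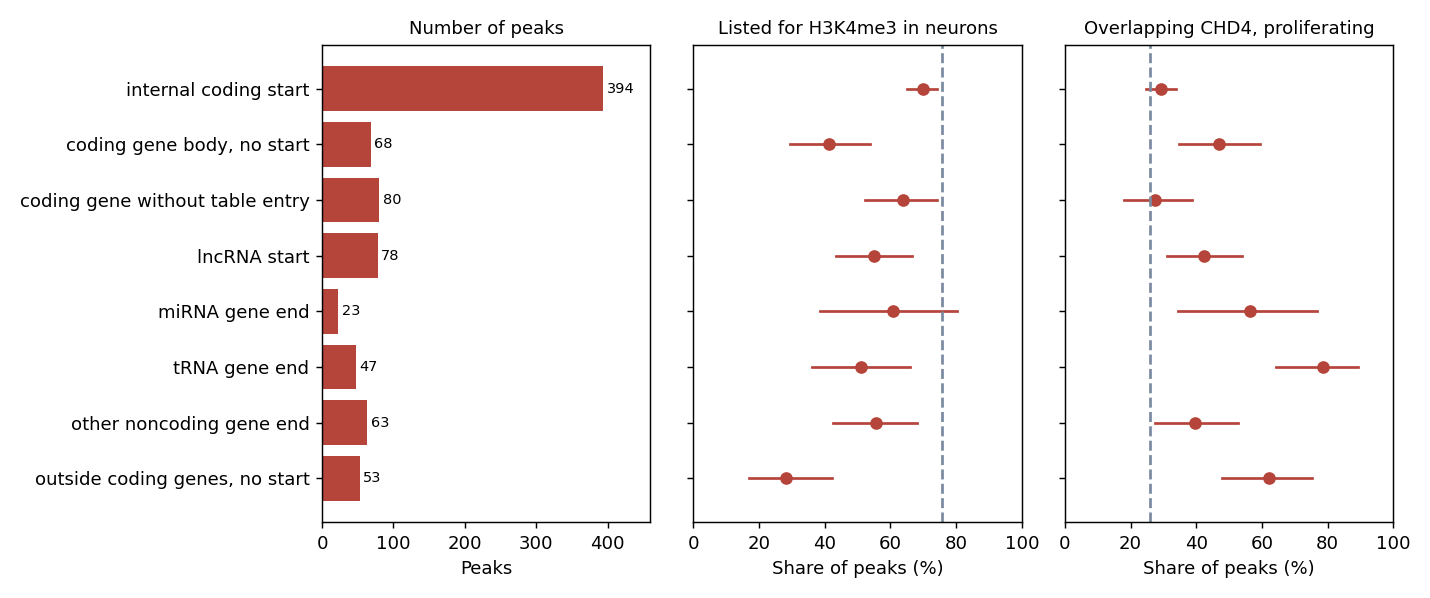
Left, number of H3K4me3 peaks away from coding gene ends in each kind, with bars starting at 0; middle and right, the share of each kind (%) listed for H3K4me3 in neurons and overlapping CHD4 in proliferating iMOPs, as points with exact 95% intervals. The dashed lines give the other 6665 peaks (75.7% and 25.9%). Internal coding starts lie nearest the first line at 69.8%, and tRNA gene ends reach 78.7% on the right.

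Host genes were numerous and mostly held a single peak: 575 genes hosted peaks, 27 of them 2 or more, and the most in 1 gene was 3, in Tcf4, a transcription factor gene with many alternative 5′ exons. For 491 peaks with a single host of known strand, the highest signal lay in the first 50% of the host's length from its 5′ end in 359 (73.1%, 69.0 to 77.0%). The median position was 29.8% of the gene's length, 12272 bp from its 5′ end. H3K4me3 was listed at that 5′ end in proliferating iMOPs for 123 of the 491 (25.1%, 21.3 to 29.1%). In the other 368 the internal peak was listed while the outermost annotated start, which can come from a predicted transcript, was not. Over the coding starts the highest signal lay downstream of the start in 271 of 400 peaks (67.8%, 62.9 to 72.3%) and within 500 bp of it in 335. The median offset over all 400 was 90.5 bp downstream.

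**Figure D2:**
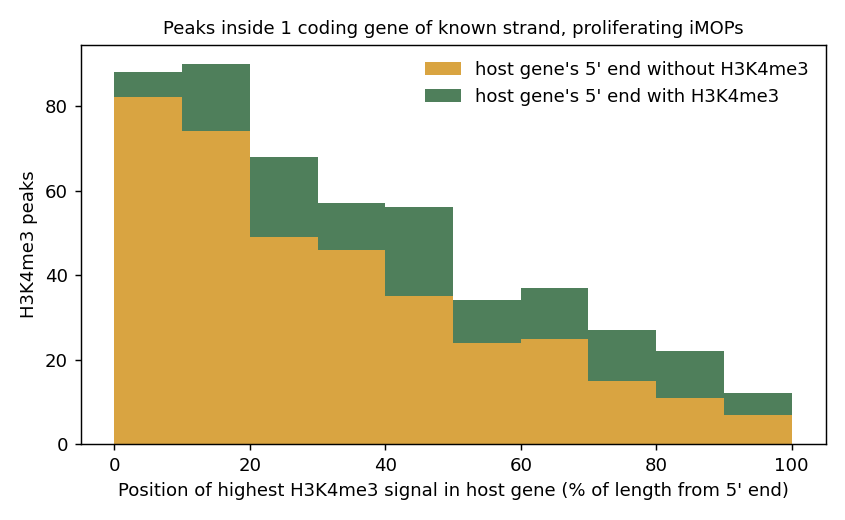
Number of H3K4me3 peaks by position of their highest signal along the host gene, in bins of 10% of the gene's length from its 5′ end, for the 491 peaks with 1 host of known strand in proliferating iMOPs. Gold marks hosts without and green hosts with H3K4me3 at the 5′ end; most bins hold fewer peaks than the one before, and gold makes up 368 of the 491 peaks.

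The internal coding starts under these peaks were rich in CpG. Over 517 such starts the median was 23 CpG in 300 bases, with a CpG observed/expected ratio of 0.78 (quartiles 0.61 and 0.93) and a GC content of 64.3%. The 2765 internal coding starts under no H3K4me3 peak had a median of 5 CpG and a ratio of 0.29. Coding starts under the other H3K4me3 peaks (7438) had a ratio of 0.83. Of 3881 coding starts lying over 1 kb from a coding end, 517 (13.3%, 12.3 to 14.4%) were under these peaks, 599 under other H3K4me3 peaks and 2765 under none. Of 10087 such lncRNA starts, 204 (2.02%, 1.76 to 2.32%) were under these peaks, 175 under other peaks and 9708 under none. For the lncRNA starts under a peak the ratio was 0.63, against 0.21 at 9708 unmarked ones. Starts under peaks also listed in neurons (370) had a ratio of 0.80, and those under peaks that were not (147) had 0.75, with overlapping quartiles.

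Short sequence elements were counted in the same windows. GGGCGG, or CCGCCC on the other strand, gives the letters of a GC box. Either stood in 68.9% (64.7 to 72.8%) of the coding starts under these peaks and 71.5% of those under other H3K4me3 peaks. Unmarked internal starts gave 27.4% and all 21263 coding starts 46.2%. TATAAA, or TTTATA on the other strand, gives the letters of a TATA box. Either stood in 4.26% (2.69 to 6.37%) of the coding starts under these peaks and 5.15% of those under other H3K4me3 peaks. Unmarked internal starts gave 13.3% and all coding starts 12.6%. GGGCGG holds a CpG, so its count moves with CpG content. Both were counted anywhere in the window, and a match describes the letters only.

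**Figure D3:**
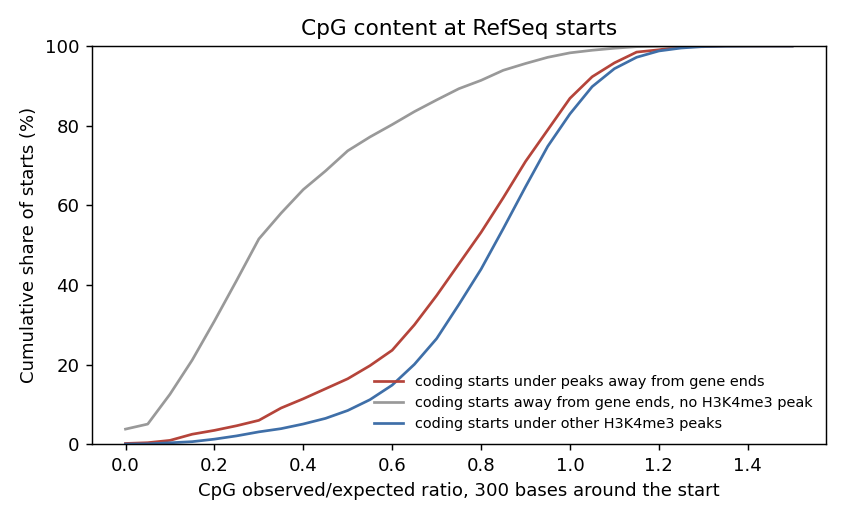
Cumulative share (%) of RefSeq coding starts by CpG observed/expected ratio in the 300 bases around the start. Starts under peaks away from gene ends (red, n = 517, median 0.78) run beside starts under other H3K4me3 peaks (blue, n = 7438, median 0.83), and internal starts under no peak (grey, n = 2765, median 0.29) lie far to the left.

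The peaks had a median width of 3850 bp (quartiles 3050 and 4887.5, range 950 to 36550), against 3700 bp for the other peaks. Their total signal was lower: the median percentile within the list was 39.8, against 51.4 for the other peaks, where 100 is the strongest. The median distance to the nearest coding gene end was 10239.5 bp. The median distance to another H3K4me3 peak was 48901 bp, and 81 peaks had one within 5 kb. Nearest the 1 kb limit, the peaks at Prelid3a, Tmem248 and Ap5b1 lay 1002, 1007 and 1012 bp from a coding end and were included, and those at Zfhx2, Mmadhc and Snapc3 lay 968, 971 and 990 bp away and were not. All 6 of these were also listed in neurons, against 74.0% over all peaks.

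The cell identity of the libraries was checked by H3K4me3 at the ends of marker genes. Otic progenitor genes were marked at 4 of 6 in neurons and 6 of 6 in proliferating iMOPs, and neuron genes at 3 of 6 (Tubb3, Map2 and Elavl3) in neurons and 2 of 6 in proliferating iMOPs. Hair cell, glia and mesenchyme genes were unmarked at their ends in both states, 0 of 4 for each list. Blood genes were marked at 0 of 4 in neurons and 1 of 4 (Cd68) in proliferating iMOPs. The check covers gene ends only. Peaks away from coding ends, in or nearest the mesenchyme gene Pdgfra and the blood gene Ptprc, were listed in both states.

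In neurons, 485 of the 806 peaks overlapped a listed H3K4me3 peak (60.2%, 56.7 to 63.6%), against 5044 of the other 6665 peaks (75.7%), with 74.0% over all peaks. The neuron list is shorter, 5625 peaks against 7472 in the whole proliferating list, and its depth is unknown, so a peak missing from it may lie under its threshold. Total signal in proliferating iMOPs separated peaks by whether they were listed in neurons: the median percentile was 56.7 for those listed and 17.3 for those not. The whole list was split by total signal into 4 groups of equal size. In the weakest group 19.8% (15.1 to 25.1%) of the peaks away from coding ends were also listed in neurons, against 32.1% of the other peaks. The second group gave 65.4% against 74.3%, the third 86.1% against 94.7%, and the strongest 96.3% (91.6 to 98.8%) against 98.7%. Widths gave a like order, with 55.9% against 68.2% at 2000 to under 4000 bp and 66.5% against 87.9% at 4000 bp and over.

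**Figure D4:**
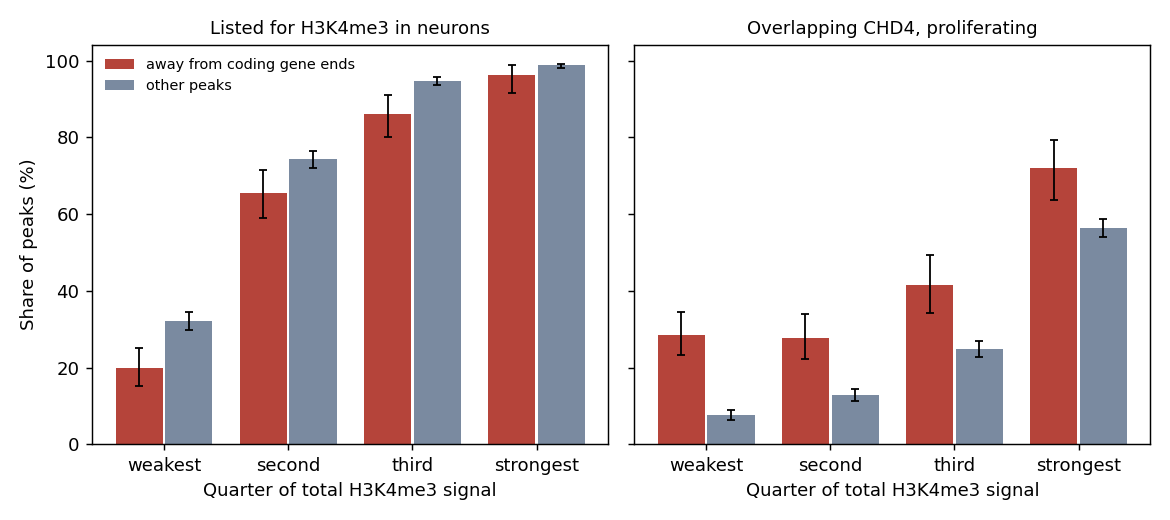
Share (%) of H3K4me3 peaks of proliferating iMOPs by total signal in 4 groups of equal size, for peaks away from coding gene ends (red) and other peaks (blue-grey), with exact 95% intervals; left, listed for H3K4me3 in neurons, right, overlapping CHD4 in proliferating iMOPs. On the left red lies below blue-grey in each group (19.8% and 32.1% in the weakest), and on the right red lies above it (28.5% and 7.54% in the weakest).

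By kind, internal coding starts were most often also listed in neurons, at 69.8% (65.0 to 74.3%). Next came coding genes without an entry in the promoter table (63.8%, 52.2 to 74.2%), miRNA gene ends (60.9%, 38.5 to 80.3%), other noncoding ends (55.6%, 42.5 to 68.1%), lncRNA starts (55.1%, 43.4 to 66.4%) and tRNA gene ends (51.1%, 36.1 to 65.9%). Gene bodies with no start stood at 41.2% (29.4 to 53.8%), and peaks outside coding genes with no start at 28.3% (16.8 to 42.3%). Neighbours in this order had overlapping intervals. Median total signal was also unequal, at percentile 42.2 for internal coding starts, 31.4 for gene bodies with no start and 28.5 outside coding genes, and its part in the order was not tested.

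Where a peak was listed in both states, the neuron peak was a median of 4350 bp wide, against 4000 bp in proliferating iMOPs. It was wider in neurons in 279 of 485 (57.5%), narrower in 193 and equal in 13, and the positions of highest signal were a median of 75 bp apart. The other peaks gave 4300 bp in neurons and 3900 bp in proliferating iMOPs, with 61.5% of 5044 wider in neurons and the positions of highest signal a median of 50 bp apart. At the internal start of Elavl2, which encodes a neuronal RNA-binding protein, the peak was 7700 bp wide in neurons and 3650 bp in proliferating iMOPs. At Ubtf, which encodes a factor for ribosomal RNA transcription, a 6500 bp peak in neurons was 1 of 2 that overlapped a 12800 bp peak in proliferating iMOPs. Widths depend on each list's threshold.

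The outer start and the internal peak of a gene did not always go together. Of the 123 peaks whose host also had H3K4me3 at its 5′ end in proliferating iMOPs, 72 (58.5%, 49.3 to 67.3%) were also listed in neurons. For the 368 with no mark there the count was 247 (67.1%, 62.1 to 71.9%). Among the 51 of the 123 that were not listed in neurons, the host still had H3K4me3 at its 5′ end in neurons for 40. The peak in Map4, which encodes a microtubule-associated protein, was 1 of these 40. Nav2, which encodes a navigator protein of growing neurites, showed the mark at different starts in the states: in neurons H3K4me3 was listed at its 5′ end and not at the internal start, and in proliferating iMOPs at the internal start, 287112 bp downstream of the 5′ end, and not at the 5′ end. Of the 121 peaks that were not listed in neurons and whose host had no mark at its 5′ end in proliferating iMOPs, it was the only 1 whose host had that mark in neurons. Its internal peak overlapped CHD4 in both states and p300 in proliferating iMOPs.

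CHD4 was listed over more of these peaks than of the other peaks in both states. In neurons it overlapped 227 of 806 (28.2%, 25.1 to 31.4%), against 18.8% of the other peaks and 19.8% of all peaks. In proliferating iMOPs it overlapped 310 (38.5%, 35.1 to 41.9%), against 25.9% of the other peaks and 27.2% of all. p300 in neurons overlapped 42 (5.21%, 3.78 to 6.98%), against 2.06% of the other peaks and 2.40% of all. In proliferating iMOPs it overlapped 186 (23.1%, 20.2 to 26.1%), against 17.9% of the other peaks and 18.4% of all. The p300 lists held 965 peaks in neurons and 3144 in proliferating iMOPs, so the 2 states are not set against each other. With lists trimmed to equal length, p300 overlapped 5.21% of these peaks in neurons and 7.82% in proliferating iMOPs, against 2.06% and 5.13% of the other peaks. Where CHD4 overlapped, its highest signal lay inside the H3K4me3 peak in 204 of 227 cases in neurons (89.9%) and 304 of 310 in proliferating iMOPs (98.1%), a median of 200 bp from the H3K4me3 maximum in either state. The other peaks were much alike, at 93.4% in neurons and 98.2% in proliferating iMOPs.

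**Figure D5:**
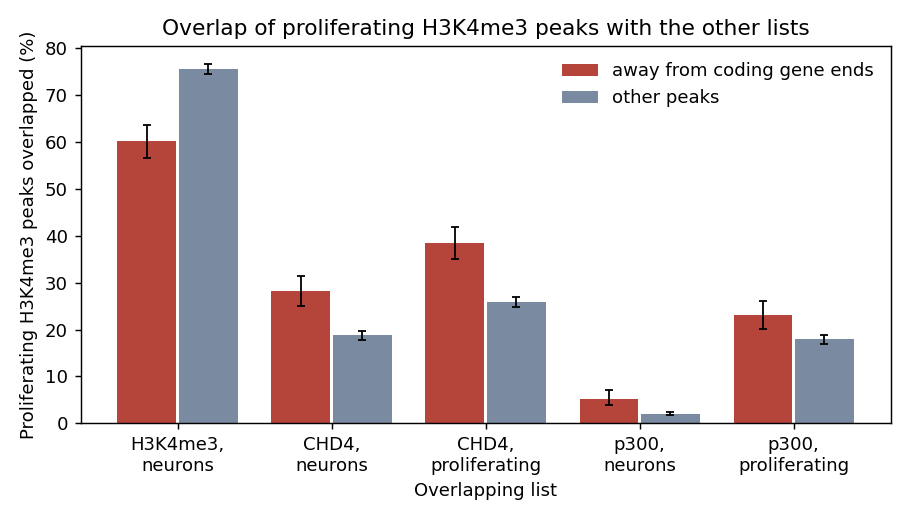
Share (%) of proliferating H3K4me3 peaks that overlap each of 5 other lists by at least 1 bp, for peaks away from coding gene ends (red, n = 806) and other peaks (blue-grey, n = 6665), with exact 95% intervals. Red is lower for neuron H3K4me3 (60.2% and 75.7%) and higher for the CHD4 and p300 lists.

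The gap to the other peaks in CHD4 overlap was widest among the weakest peaks. In proliferating iMOPs CHD4 overlapped 28.5% (23.1 to 34.4%) of the weakest group, against 7.54% of the other peaks in that group. The strongest group gave 72.1% (63.7 to 79.4%) against 56.3%. Neuron CHD4 overlapped 22.8% of the weakest group, against 4.36% of the other peaks, and 50.7% of the strongest, against 46.0%. p300 in proliferating iMOPs gave 15.6% against 4.17% in the weakest group and 47.1% against 43.0% in the strongest, where the intervals overlap.

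p300 seldom stood without CHD4, while CHD4 often stood without p300. CHD4 was listed in both states at 202 peaks (25.1%), against 16.4% of the other peaks, and in neither state at 471 (58.4%), against 71.7%. It was listed in neurons only at 25 peaks (3.10%), against 2.39% of the other peaks, and in proliferating iMOPs only at 108 (13.4%), against 9.51%. In neurons, CHD4 stood without p300 at 185 peaks (23.0%) and with it at 42, and the other peaks gave 16.7% and 2.06%. p300 without CHD4 was found in neurons at 0 of 806 peaks, which allows a share of up to 0.457%, and at 0 of the other 6665. In proliferating iMOPs CHD4 and p300 coincided at 181 peaks (22.5%), against 16.4% of the other peaks. There CHD4 stood without p300 at 129 (16.0%), against 9.44%, and p300 without CHD4 at 5 (0.620%), against 1.43%. All 5 other lists met at 16 peaks (1.99%), against 1.46% of the other peaks, and 180 peaks (22.3%) were in no other list, against 19.7%. CHD4 in proliferating iMOPs did not go with a higher share listed in neurons: 58.7% with it and 61.1% without. For the other peaks these were 83.9% and 72.8%. p300 gave 58.6% with and 60.6% without, against 86.5% and 73.3% for the other peaks. Total signal was unequal between these groups. Its median percentile was 60.6 for peaks with both factors in proliferating iMOPs and 51.8 for those with CHD4 alone. Peaks with neither factor there stood at 32.4. Stronger peaks were more often listed in neurons, and shares with and without a factor at equal signal were not compared.

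By kind, CHD4 in proliferating iMOPs was most frequent at tRNA gene ends (78.7%, 64.3 to 89.3%), outside coding genes with no start (62.3%, 47.9 to 75.2%) and at miRNA gene ends (56.5%, 34.5 to 76.8%). Gene bodies with no start had 47.1% (34.8 to 59.6%), lncRNA starts 42.3% (31.2 to 54.0%) and internal coding starts 29.2% (24.7 to 33.9%). Internal coding starts, the kind most often also listed in neurons, were thus near the 25.9% of the other peaks.

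Among strong peaks inside coding genes were those of Pde4dip, a centrosome and Golgi scaffold, Ubtf, Nr4a2, a nuclear receptor gene of dopamine neurons, Tpm3, a tropomyosin, Ptch1, the Hedgehog receptor, and Cln8, a protein of the endoplasmic reticulum. Their total signal percentiles ran from 96.2 to 99.2, and all 6 were also listed in neurons. They were picked for high signal, and 96.3% of the strongest group of peaks away from coding ends were listed there. The Ptch1 peak (chr13:63561601-63569550) was 8550 bp wide in neurons and 7950 bp in proliferating iMOPs, with CHD4 in both states and p300 in proliferating iMOPs. None of Pde4dip, Ubtf, Tpm3, Ptch1 or Nr4a2 had H3K4me3 listed at the host's outer 5′ end in either state. Adh7, which encodes a retinol-oxidising dehydrogenase, was listed in proliferating iMOPs only, at percentile 76.5 and 9900 bp, with its highest signal 2198 bp upstream of the low-CpG start shown above. Rarg, a retinoic acid receptor gene, was likewise listed in proliferating iMOPs only, at percentile 72.1, with CHD4 there. Ptpn3, a phosphatase gene, and Impact, a translation regulator gene, also were not listed in neurons.

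A list of 48 genes with well-known internal promoters had 18 with a peak of this kind. Over all 21887 coding genes, 575 hosted such a peak. Gnas, the imprinted locus of the stimulatory G protein, held 2, both in the neuron list and both with CHD4 in both states and p300 in proliferating iMOPs. Pax6, Auts2, Shank3, Sox6, Foxp1, Nav1, Ank2 and Macf1 each held 1 that was also listed in neurons. Bdnf, the neurotrophin gene, Map4 and Nrxn2 each held 1 that was not, with Bdnf at percentile 10.9 and Nrxn2 at percentile 4.50. Lmna, a nuclear lamina gene, held 2 that were not, and of the 3 in Tcf4 2 were. Nfia held 1 that was and 1 that was not. Dst held 2 that overlapped 1 and the same neuron peak of 8600 bp. No coding start in the promoter table lay under the peaks of Pax6, Auts2, Macf1, Nrxn2 and Tcf4. The same held for 1 peak each of Gnas, Nfia and Dst. The promoter table has no entries for chromosome 18, where Tcf4 lies. Among peaks with CHD4 in neurons only, H3K4me3 signal in proliferating iMOPs was highest at Mapre2, Dixdc1, Phc2 and Chaserr. The first 3 were at internal sites. Chaserr, marked at its start, is the lncRNA next to Chd2 that holds down Chd2 in mouse. All 4 were also listed for H3K4me3 in neurons, against 60.2% of all 806 peaks.

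Noncoding genes ranged from abundant nuclear RNAs to microRNA hosts. Of a list of 22 noncoding RNA genes, 7 had a peak: Malat1, Kcnq1ot1, Airn, Norad, Pvt1, Oip5os1 and Terc. Over all 9533 lncRNA genes with a start in the promoter table, 172 had a start under a peak. The list counts are looser, as they also take a peak with no start under it. The Malat1 peak was 13100 bp wide at percentile 85.8, was also listed in neurons, and overlapped CHD4 and p300 in proliferating iMOPs and neither in neurons. Airn, the imprinted antisense RNA of the Igf2r domain, was the only 1 of the 7 not listed in neurons, at percentile 24.3. All 5 peaks at snoRNA host genes, at Snhg4, Snhg5, Snhg15, Snhg17 and Snhg20, were also in the neuron list, out of 19 such genes looked up. The share in that list over all 806 peaks was 60.2%. Of 17 miRNA host genes, Dleu2 and Mir22hg had a peak that was also in the neuron list, and Mir670hg and Mir9-3hg a peak that was not. Among 17 neural lncRNAs found in the table, Rmst alone had a peak, at percentile 0.495 and in proliferating iMOPs only, though it overlapped CHD4 in both states and p300 in proliferating iMOPs.

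The 24 miRNA peaks had 27 miRNA genes with an end within 1 kb, and 15 of the peaks were also listed in neurons. Of the 27 genes, 20 lay under the peak and 7, among them Mir22 and Mir670, lay beside it. The widest, at Mir9-2 (chr13:83714601-83742700), spanned 28500 bp in neurons and 28100 bp in proliferating iMOPs, at percentile 99.9, with CHD4 in both states. The Mir9-3 peak (chr7:79503701-79508150) was 4450 bp wide and overlapped CHD4 in neurons only. miR-9 is a neural microRNA with roles in the differentiation of progenitors. The Mir125b-1 peak overlapped neither factor. The Mir22 peak covers the start of its host Mir22hg shown above, with CHD4 in both states. The Mir670 peak was not listed in neurons and carried CHD4 and p300 in proliferating iMOPs, and the Mir193a peak had neither. Mir135b, at percentile 34.7, was not listed in neurons and overlapped CHD4 in both states. Peaks at Mir7240, Mir7687, Mir760, Mir7000, Mir1191b, Mir1949, Mir6516, Mir1904, Mir6402 and Mir1893 were also listed in neurons. Those at Mir6999, Mir3089, Mir6769b, Mir8099-2, Mir3083 and Mir1895 were not. A peak within 1 kb of a miRNA gene need not be that gene's start.

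tRNA gene ends had the highest share with CHD4 of all kinds in proliferating iMOPs. Active tRNA genes are short, are read by RNA polymerase III, and often sit in chromatin marked by H3K4me3. Of 408 tRNA genes in the table, 126 lay under an H3K4me3 peak in neurons and 182 in proliferating iMOPs. Peaks away from coding ends covered 108 of the 182. The 47 peaks lay outside coding genes in 44 cases, and 25 had 2 or more tRNA genes within 1 kb, up to 7. CHD4 overlapped 20 (42.6%) in neurons and 37 (78.7%) in proliferating iMOPs. The 37 peaks at tRNA ends that lay close to a coding end gave 54.1% in neurons and 75.7% in proliferating iMOPs. For H3K4me3, 51.1% of the 47 were also listed in neurons, against 94.6% of those near a coding end. The strongest of these peaks, with the tRNA genes n-TNgtt12, n-TKctt16, n-THgtg8, n-TGtcc7 and n-TEctc13 (chr3:96494201-96505900), was in the neuron list and overlapped neither factor. Another 2 clusters, on chr1 near Fcgr3, overlapped all 5 other lists. tRNA genes have near-identical copies, so reads may be placed on the wrong copy.

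The widest of the 806 peaks lay outside every gene in the table, at chr15:85651501-85688050, 46860 bp from the coding gene Ppara. It was 36550 bp wide, the strongest of the list, and overlapped all 5 other lists, with 2 neuron H3K4me3 peaks of which the best was 32650 bp. Another such peak of 15000 bp near Bahcc1 (chr11:120302901-120317900) also overlapped all 5. Of the 44 peaks outside every gene, 22.7% were also listed in neurons, 54.5% overlapped CHD4 in neurons and 68.2% did in proliferating iMOPs. A 10500 bp peak near 2 snRNA genes, Gm25890 and Gm22614 (chr3:96481651-96492150), at percentile 99.2, was the strongest of the 806 not overlapped in the neuron list and overlapped neither factor. Near Zswim4, an 8050 bp peak outside genes was also missing from the neuron list for H3K4me3, with CHD4 in both states. Peaks between genes on chr8 near 9530057J20Rik (percentile 93.5), on chr6 near BC035044 (84.3) and on chr17 near Gm2808 (75.1) were also listed in neurons and overlapped CHD4 in both states and p300 in proliferating iMOPs. No list of regions with uncertain read placement was applied here, so these peaks and that near 4930467E23Rik on chr8 (97.1) may include such regions.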

How the data were processed

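CUT&Tag peak lists for H3K4me3, CHD4 and p300 in 2 states were used. Each library was made from 500000 cells and read as 150 bp pairs, per the labels' protocols, and the 2 IgG libraries are not analysed here. Bowtie2, deepTools, SEACR and the build mm10 appear in the submitters' processing notes, without roles or parameters. Signal columns were deposited by the authors. Their scaling, and whether libraries were pooled, is not stated in the labels or processing notes. Signal therefore only ranked peaks inside a list, as a percentile. Depth is unknown. All but 6 positions fall on a 50 bp grid. Overlap needed 1 bp. Genes and starts came from RefSeq tables of GRCm38.p6, and 32 peaks on chromosome 18 had no entry in the promoter table. The rest was computed with Python 3.11.15, numpy 2.4.6, pandas 2.3.3, SciPy 1.17.1 and matplotlib 3.10.9. Code was checked on simulated data. Named peaks were the strongest of each location class, the widest, the strongest not in neurons, the strongest by factor pattern, those nearest the limit, those at miRNA genes and those at listed genes; printed starts were picked by hand after seeing values. The members and lists were chosen with earlier results of these data known. Alternatives varied the distance, overlap, width, signal and list length.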

Additional observations from a re-analysis of the deposited data

How the results depend on the processing

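The peaks away from coding ends stayed on the same side of the other peaks in 44 of 45 comparisons of the 5 shares over 9 settings each, and the exception was p300 in neurons among peaks of 1000 to 3000 bp. The shares themselves moved. In that width range they were 44.6% for neuron H3K4me3, 13.3% for neuron CHD4, 22.6% for proliferating CHD4, 0% for neuron p300 (0 of 195 peaks, which allows up to 1.87%) and 11.3% for proliferating p300. With at least 50% of the peak covered, proliferating CHD4 was 33.9% and proliferating p300 18.6%. In the stronger 50% of each list, neuron CHD4 was 20.4%, proliferating CHD4 31.7%, neuron p300 3.56% and proliferating p300 19.1%. With lists of equal length, the proliferating H3K4me3 list was itself cut to its strongest peaks for the neuron H3K4me3 share. That share was then 79.4% (433 of 545), against 89.4% of the other peaks, and is not a share of all 806. Proliferating p300 was 7.82% of the 806. At that setting the neuron CHD4 and neuron p300 lists were the shorter ones and stayed whole. Their comparisons therefore repeated the main values and could not change side. Also leaving out peaks within 1 kb of a RefSeq coding start, a setting chosen after seeing the data, left 404 peaks. These gave 50.2% for neuron H3K4me3, 34.9% and 47.0% for neuron and proliferating CHD4, and 7.43% and 30.4% for neuron and proliferating p300. Leaving out peaks at tRNA genes was likewise not planned. It gave 60.7% for neuron H3K4me3 and 36.0% for proliferating CHD4. Both unplanned settings are among the 9. The number of peaks was 1558 when distance was taken from the highest-signal interval and 309 in the stronger 50% of the list, where the median width was 4500 bp. The cause of these shifts was not tested. No paired analysis was possible because each antibody and state had 1 library. Depth is unknown, so a peak missing from a list may lie below its threshold.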

Other observations

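In neurons, 515 of 5625 H3K4me3 peaks lay more than 1 kb from both ends of every coding gene. Of these, 472 overlapped one of the 806 peaks of proliferating iMOPs, 27 overlapped another proliferating H3K4me3 peak and 16 (3.11%) overlapped none, against 1.78% of the other 5110 neuron peaks. The strongest of the 16 covered internal starts of Cbfa2t3, a transcriptional corepressor gene, at percentile 72.9 of the neuron list, Rufy3, an adaptor of axon growth, at percentile 71.9, and Crmp1, a collapsin response mediator gene, at percentile 51.0. The Cbfa2t3 peak (chr8:122670501-122679250) overlapped CHD4 in both states and p300 in neurons, and the Rufy3 and Crmp1 peaks overlapped neither factor. The fourth, 5345 bp from Sox2 and near Mir1897, was 7800 bp wide.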
